A study of Rattus norvegicus with 8 samples.

Results

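The 37 genes described here are the rat genes encoded in mitochondrial DNA, taken as every row of the deposited count table placed on chromosome MT, out of 30562 genes in all. By the biotype given in the table they are 13 mRNA genes, 22 tRNA genes and 2 rRNA genes. They were read in the livers of 8 male Wistar rats that weighed 160 g at the start of treatment, with 2 rats in each of 4 groups. Of 5 rats per group, 2 were sequenced, and each library comes from a separate animal. All 8 animals received standard chow and water. The control group received vehicle only. The HCB group received 100 mg/kg of hexachlorobenzene, a chlorinated fungicide and persistent pollutant, by 3 gavages a week over 30 days. The atorvastatin group received atorvastatin, a statin that inhibits cholesterol synthesis, through the water it drank, with 5 mg/kg per day as the labelled dose. The fourth group received both and is called atorvastatin plus HCB, and killing was on day 37. The recipe in the same labels, 5 mg in the 20 mL that each rat drank per day, does not match that dose per kg at that weight, so the atorvastatin dose is uncertain.

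Mitochondrial DNA is a small circle transcribed from both strands into long RNAs. The tRNAs lie between most of the other genes, and cutting them out releases the mRNAs and rRNAs. The mRNAs encode core subunits of complexes I, III and IV of the respiratory chain and of the ATP synthase, while the remaining subunits, the RNA polymerase, the processing enzymes and the proteins of the mitochondrial ribosome come from nuclear genes. Liver is rich in mitochondria, and their mRNAs are among the most abundant in the tissue.

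Between 29376942 and 51982004 reads per library were assigned to genes, and between 1707894 and 4916487 of them to the 37 genes. Reads outside annotated exons made up 15.3% to 34.0% of all reads in the 4 libraries without HCB, highest in control replicate 1 (27.7%) and atorvastatin replicate 1 (34.0%), and 7.46% to 11.4% in the 4 with HCB. They did not overlap by HCB and so moved with every HCB difference below. Their part in those differences was examined only by leaving out the 2 highest libraries. That leaves 1 library in each group without HCB, control replicate 2 at 15.3% and atorvastatin replicate 2 at 19.5%. Both still lie above every library with HCB, so this setting cannot tell reads outside exons apart from HCB. Hepatocyte markers were high in all 8 libraries, at summed levels of 110203 to 224762 CPM (counts scaled by normalised library size). The 4 libraries without HCB stood apart from the 4 with it in 2 respects that go against labels shared by all 8. The summed level of 6 Y-linked genes was 1.99 to 4.04 CPM in the libraries without HCB and 136 to 218 CPM in those with it, although all rats are labelled male. The summed level of 5 fetal liver genes (Afp, H19, Igf2, Gpc3 and Dlk1) was 37451 to 51247 CPM without HCB and 148 to 333 CPM with it. Summed erythroid markers were 1943 to 5052 CPM without HCB and 299.6 to 1304 CPM with it, and summed neutrophil markers were 130.1 to 219 CPM against 0.602 to 3.23 CPM, with Ltf at 0 in every library. Summed stellate and mesenchymal markers were 1089 to 3870 CPM without HCB, highest in atorvastatin replicate 2, and 598 to 786 CPM with it. The part of these cell markers in the results was not tested. In every comparison of HCB below, HCB therefore cannot be told apart from whatever else separates these libraries. Both comparisons of atorvastatin within a level of HCB do not cross this divide. In bulk tissue, a change in the number of cells of a type and a change in RNA per cell cannot be told apart.

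The mitochondrial genes lie so close together that position decided which of them could be counted. The counting tool by default assigns a read that touches more than 1 gene to none, and the command in the file headers sets no option to change this. Reads were 150 bases long before trimming. The 37 genes form 36 neighbouring pairs, of which 7 overlap and 14 abut, and the widest gap is 32 bases. Along the circle, 28 genes lie on the plus strand and 9 on the minus strand, namely Mt-nd6 and 8 tRNA genes, and counting used no strand. A tRNA gene of 60 to 75 bases between neighbours has no place where a 150-base read touches it alone, and this held for 21 of the 22.

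The tRNA counts followed that geometry. Of 15810 tRNA reads in all libraries, 15626, or 98.8%, fell in 1 gene, ENSRNOG00000029145 on the minus strand at MT:15348-15415 (mRatBN7.2), the last gene before the control region. It is the only tRNA gene with room for an unambiguous 150-base read, in 69 places. At each of these places the read runs past the 68-base gene into the control region. Such reads do not measure the mature tRNA, and without strand, RNA of either strand cannot be told apart there. The other 21 tRNA genes held 184 reads together, at most 54 in any one, and 9 of them held none. With reads of 100 bases, 19 of the 22 would still have no place. A count of 0 in those 21 genes is therefore not a measure of their RNA.

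**Figure D1:**
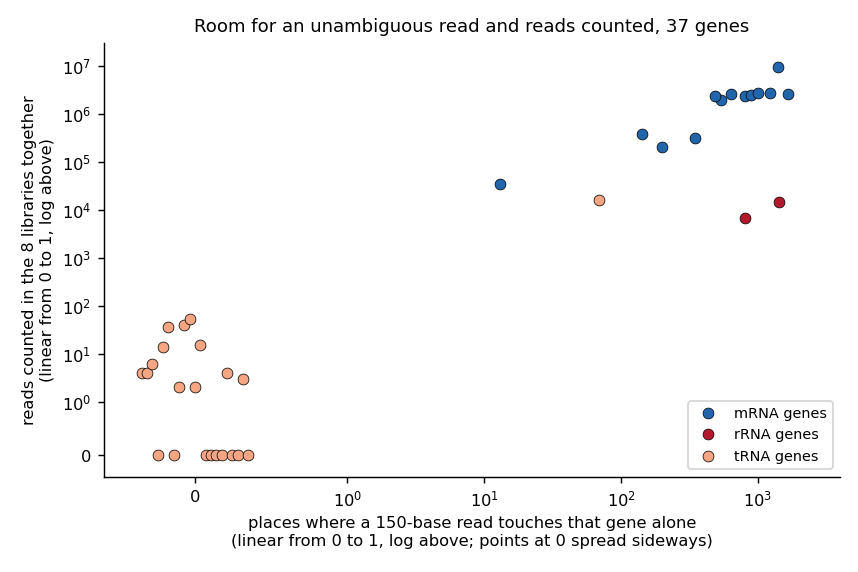
Reads counted in the 8 libraries together (vertical axis) against the number of places where a 150-base read touches that gene alone (horizontal axis), for the 37 genes coloured by class, on axes that are linear from 0 to 1 and logarithmic above. The 21 tRNA genes with 0 places hold 184 reads together, Mt-atp8 has 13 places, and both rRNA genes sit far below mRNA genes of like room.

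Room for a read also bore on the mRNA genes that overlap. Mt-atp8 (MT:7758-7961) and Mt-atp6 (MT:7919-8599), subunits of the ATP synthase, share 43 bases, and Mt-atp8 has 13 places for a 150-base read in its 204 bases. Per base, Mt-atp6 held 20.3 ± 0.738 times the reads of Mt-atp8 (SD, n = 8 libraries). Per place for a 150-base read the ratio was 1.80 ± 0.0657, and per place for a 100-base read it was 7.92 ± 0.289. The ratio thus moved by more than 10 times with the correction, while it varied little among libraries. Mt-nd4l (MT:9870-10166) and Mt-nd4 (MT:10160-11537), subunits of complex I, share 7 bases. Per base, Mt-nd4 held 1.57 ± 0.212 times the reads of Mt-nd4l, per place for a 150-base read 0.851 ± 0.115 times, and per place for a 100-base read 1.10 ± 0.149 times. Their order thus depended on the read length assumed, and the length after trimming is not given in the sources used here. Mt-nd5 (MT:11736-13565) and Mt-nd6 (MT:13543-14061) lie on opposite strands and share 23 bases. Mt-nd5 held 2.35 ± 0.283 times the reads of Mt-nd6 per base. Without strand, reads of Mt-nd6 and reads of any RNA antisense to it cannot be told apart.

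Compared per length as TPM (reads per base of exon, scaled to the same sum in each library), the mRNA genes spanned a wide range and Mt-co1 led. Mt-co1 (MT:5323-6867), the catalytic subunit of complex IV, was at 42442 ± 6774 TPM (SD, n = 8) and ranked first of the 13 in 8 of 8 libraries. Mt-co3 (MT:8599-9382) and Mt-co2 (MT:7006-7689), its partner subunits, were at 23259 ± 5926 and 19901 ± 4498 TPM. Mt-atp6 was at 23069 ± 4395 TPM. The ranges of these 3 overlapped across libraries. Within each library, however, Mt-co3 was above Mt-co2 in TPM, in 8 of 8. Per place for a 150-base read, Mt-co2 was slightly above Mt-co3 in atorvastatin plus HCB replicate 2. In TPM, Mt-atp6 was above either of them in some libraries and below it in others.

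Among complex I subunits, Mt-nd1 (MT:2740-3694) was at 16921 ± 2958 TPM, Mt-nd2 (MT:3904-4942) at 15845 ± 8502, Mt-nd4 at 13379 ± 2329, Mt-nd5 at 9859 ± 2349 and Mt-nd4l at 8696 ± 1992. Mt-cyb (MT:14136-15278), cytochrome b of complex III, was at 16137 ± 3506 TPM. The lowest were Mt-nd6 at 4164 ± 688, Mt-nd3 (MT:9451-9798) at 4049 ± 1206 and Mt-atp8 at 1144 ± 233 TPM, the last of which ranked 13 in 8 of 8 libraries. TPM takes no account of room for a read. Per place for a 150-base read, mean reads were 328 for Mt-atp8, 129 for Mt-nd3 and 112 for Mt-nd6. Per place for a 100-base read they were 67.8, 103 and 97.7, so the last rank of Mt-atp8 depended on the correction. Mt-nd2 had the widest spread of the 13. It ranked 2 in both HCB libraries and in atorvastatin plus HCB replicate 2, and 8 or 9 in the other 5 libraries.

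The 2 rRNA genes were far lower than the mRNA genes around them. The gene at MT:68-1025 (ENSRNOG00000030478) was at 54.9 ± 40.2 TPM and the gene at MT:1094-2664 (ENSRNOG00000043866) at 71.6 ± 63.5 TPM, with 809 and 1422 places for a 150-base read. In cells, mitochondrial rRNA is more abundant than mitochondrial mRNA, and the labels do not say how rRNA was removed from the libraries or whether RNA with a poly(A) tail was selected. The 2 genes together held 776 to 6482 reads per library. Their levels below describe what the libraries retained.

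**Figure D2:**
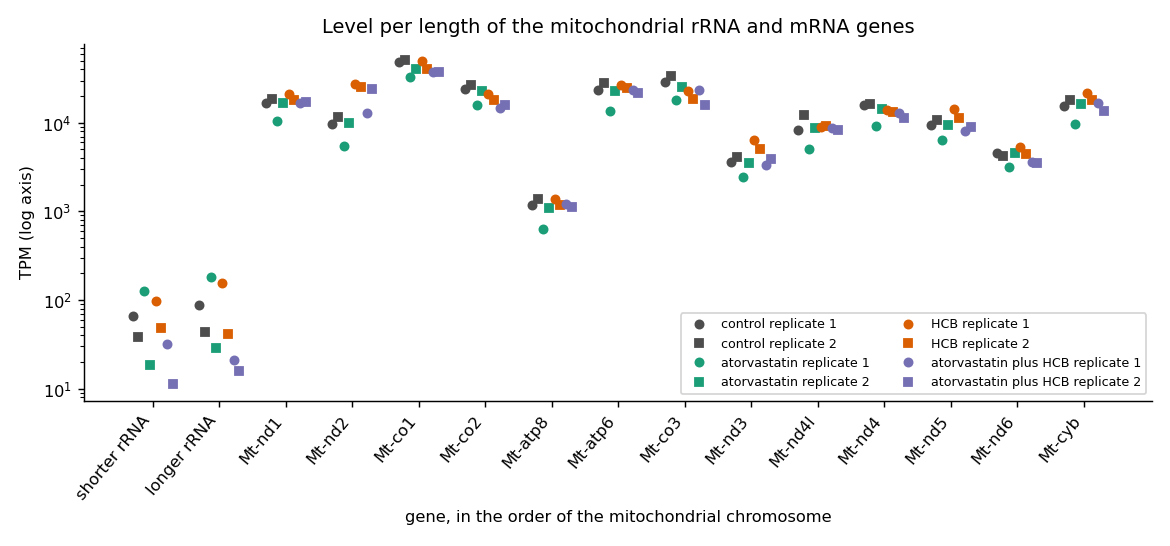
TPM on a log axis for the 2 rRNA and 13 mRNA genes in chromosome order, with each library as a point (circles replicate 1, squares replicate 2, colours the 4 groups). Mt-co1 is highest and Mt-atp8 lowest of the mRNAs in all 8 libraries, and both rRNA genes reach at most 181 TPM. TPM is not corrected for room for a read, on which the rank of Mt-atp8 depends.

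The mitochondrial genes took a smaller share of assigned reads in every library with atorvastatin than in any without it, a difference that did not pass adjustment over the 6 share tests made. The share was 9.53% and 10.8% in the control libraries, 5.81% and 8.52% with atorvastatin alone, 12.8% and 9.36% with HCB alone, and 8.08% and 8.02% with both. With atorvastatin it was 7.61% ± 1.22 and without it 10.6% ± 1.58 (SD, n = 4 each), a difference of -3.00 percentage points. The two-sided exact permutation test gave p = 0.0286, the smallest that 4 against 4 libraries can give, and an adjusted p of 0.0857 (Benjamini-Hochberg). It exchanged libraries freely between those with and without HCB, and a permutation within each level of HCB was not run. The counting error of each share, as a 95% Wilson interval, was at most 0.0211 points wide. Over all reads mapped to 1 place, the difference was -2.28 points (exact permutation p = 0.143), and over TMM-scaled library sizes it was -3.10 points (exact permutation p = 0.229). Reads outside exons were 7.46% to 34.0% with atorvastatin and 10.8% to 27.7% without it, so those ranges overlapped.

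The share with HCB overlapped the share without it. It was 9.56% ± 2.24 with HCB and 8.66% ± 2.10 without (SD, n = 4 each), a difference of 0.907 points with an exact permutation p of 0.6 (adjusted 0.72). The mRNA genes made up 99.7% to 99.9% of mitochondrial reads in every library, so these shares are those of the mRNAs.

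Within the mitochondrial reads, tRNA and rRNA reads were few, and no difference in their shares passed adjustment. The tRNA share was 0.0261% and 0.0436% in control, 0.0196% and 0.0279% with atorvastatin alone, 0.100% and 0.0557% with HCB alone, and 0.0508% and 0.0596% with both treatments. All 4 libraries with HCB lay above all 4 without. The means were 0.0666% ± 0.0227 and 0.0293% ± 0.0102 (SD, n = 4 each; exact permutation p = 0.0286, adjusted 0.0857), and the share is nearly all from the gene at MT:15348-15415. As described above, its reads can come from RNA that runs past the gene, on either strand. For atorvastatin the tRNA share overlapped (exact permutation p = 0.486).

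The rRNA share was 0.0908% and 0.0435% in control, 0.289% and 0.0311% with atorvastatin alone, 0.132% and 0.0513% with HCB alone, and 0.0334% and 0.0186% with both treatments. The 2 atorvastatin libraries alone spanned a range that held all the others but replicate 2 of both treatments. The exact permutation p was 0.571 for HCB and 1.0 for atorvastatin.

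**Figure D3:**
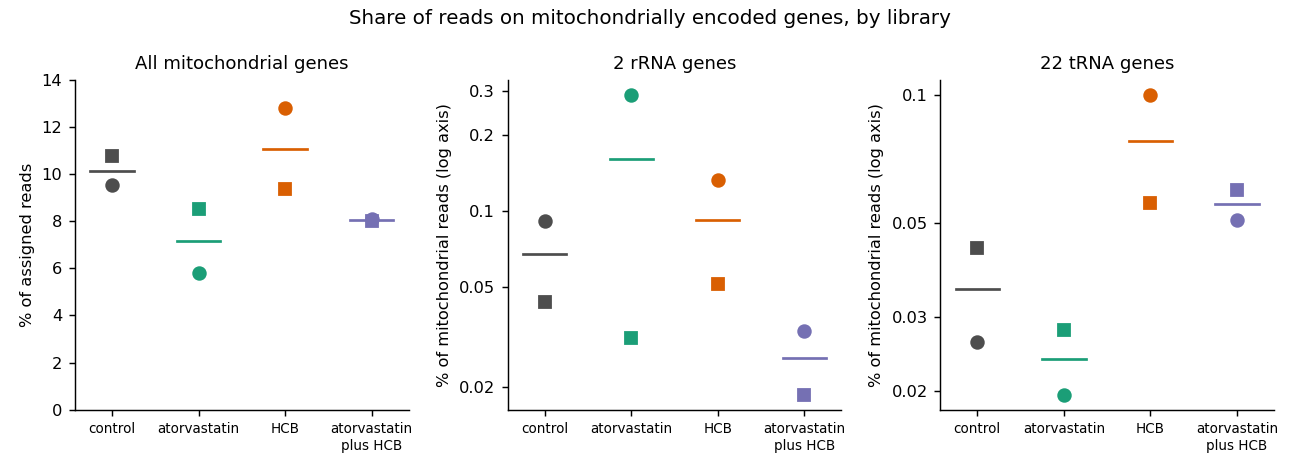
Left, reads of all 37 genes as a percent of assigned reads. Middle and right, reads of the 2 rRNA and the 22 tRNA genes as a percent of mitochondrial reads on log axes. Circles are replicate 1, squares replicate 2, and lines the mean of the 2 libraries of a group. Shares on the left are 5.81% to 8.52% in the libraries with atorvastatin and 9.36% to 12.8% in those without, and tRNA shares are higher in all 4 libraries with HCB.

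Mt-nd2 was the member with the smallest p in each HCB comparison. The gene encodes a membrane subunit of complex I. Its level was 3334 and 5341 CPM in control, 1638 and 3924 with atorvastatin alone, 17422 and 12848 with HCB alone, and 7364 and 12373 with both treatments. All 4 libraries with HCB lay above all 4 without, and the lowest of the 4 was atorvastatin plus HCB replicate 1. By edgeR's quasi-likelihood test, Mt-nd2 was 1.80 ± 0.52 higher on the log2 scale (SE) in HCB versus control (adjusted p = 0.0269) and 1.83 ± 0.52 higher in atorvastatin plus HCB versus atorvastatin (adjusted p = 0.0252). Averaged over both, it was 1.82 ± 0.37 higher (adjusted p = 0.00245), or 3.52-fold.

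In HCB versus control, Mt-nd2 was the only member called of 16 tested, or 1 higher and none lower, where 26.9% of all 16591 genes tested were called and 13% were higher. In atorvastatin plus HCB versus atorvastatin, 2 members of 16 were called higher, where 27.6% of all genes were called and 12.6% were higher. For the average effect of HCB, 4 of 16 members were called higher, where 46.6% of all genes were called, 21.3% higher and 25.3% lower. The members' share was thus below that of all genes called in each of the 3, and close to that of genes called higher in the last 2. The other 21 members, all tRNA genes, were too low to be tested.

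The other 3 members called for the average effect were the tRNA gene at MT:15348-15415, Mt-nd3 and Mt-atp8. Counts of the tRNA gene carry the limit given above, on reads that run past the gene and on strand. The tRNA gene was at 18.8 and 46.2 CPM in control, 7.64 and 21.2 with atorvastatin alone, 155 and 57.7 with HCB alone, and 52.6 and 55.1 with both treatments, so the groups did not overlap and HCB replicate 1 stood highest. It was 1.80 ± 0.43 higher on the log2 scale (SE; edgeR adjusted p = 0.00848), with 1.90 ± 0.61 in atorvastatin plus HCB versus atorvastatin (adjusted p = 0.0478) and 1.71 ± 0.61 in HCB versus control (adjusted p = 0.0669). Mt-nd3, a small membrane subunit of complex I, was at 421 and 622 CPM in control, 249 and 474 with atorvastatin alone, 1369.9 and 849 with HCB alone, and 631 and 664 with both treatments. Its groups did not overlap either, but the lowest library with HCB lay close to the highest without. Mt-nd3 was 0.97 ± 0.28 higher (SE; edgeR adjusted p = 0.0149), with 1.09 ± 0.39 in HCB versus control (adjusted p = 0.0610) and 0.84 ± 0.39 in atorvastatin plus HCB versus atorvastatin (adjusted p = 0.129). Mt-atp8 was at 79.4 and 123 CPM in control, 37.1 and 86.2 with atorvastatin alone, 170.1 and 117 with HCB alone, and 136 and 112 with both treatments, and the groups overlapped. It was 0.76 ± 0.27 higher (SE; edgeR adjusted p = 0.0400), with 1.01 ± 0.39 in atorvastatin plus HCB versus atorvastatin (adjusted p = 0.0742) and 0.51 ± 0.38 in HCB versus control (adjusted p = 0.348).

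Mt-nd5 was the fourth member by p in HCB versus control, at a log2 difference of 0.85 ± 0.46 (SE; edgeR adjusted p = 0.197). Mt-nd1 was at 5300.2 and 7747 CPM in control, 2911 and 6084 with atorvastatin alone, 12206 and 8331 with HCB alone, and 8776 and 8160 with both treatments. Its groups did not overlap, and its average log2 difference of 0.78 ± 0.33 was not called (SE; edgeR adjusted p = 0.0687). In CPM, 4 members lay higher in all libraries with HCB (Mt-nd1, Mt-nd2, Mt-nd3 and the tRNA gene) and none lower. Of all genes tested, 46.8% did not overlap between these libraries, with 21.8% higher and 25% lower.

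Which calls held depended on single libraries. Leaving out a library leaves 1 in its group. Leaving out both libraries rich in reads outside exons does not tell those reads apart from HCB, as given above. Mt-nd2 and the tRNA gene stayed called for the average effect of HCB without any 1 library and without both libraries rich in reads outside exons, where Mt-nd2 was 1.42 higher (edgeR adjusted p = 0.0125) and the tRNA gene 1.27 higher (adjusted p = 0.0361). The call of Mt-nd3 was lost without control replicate 1 (adjusted p = 0.0648), without HCB replicate 1 (0.0538) and without both of those rich in reads outside exons (0.114). The call of Mt-atp8 was lost without any of control replicate 1, atorvastatin replicate 1, HCB replicate 1 and either library of both treatments, at adjusted p from 0.0545 to 0.139, and without both libraries rich in reads outside exons (0.28). In HCB versus control, Mt-nd2 was not called without any 1 of the 4 libraries compared, at adjusted p from 0.0547 to 0.188. In atorvastatin plus HCB versus atorvastatin, it was not called without atorvastatin replicate 1 (0.112) or either library of both treatments (0.0523 and 0.162), and the same held for the tRNA gene (0.252, and 0.136 and 0.126).

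Across the 13 mRNAs the sign of the HCB difference was shared but rested on the scaling and on the libraries used. All 13 were higher on average with HCB, at a median log2 difference of 0.69 against -0.11 over all genes tested. The TMM factors were 1.01 to 1.42 in the libraries without HCB and 0.777 to 0.891 in those with it. With library totals and no such factor, every difference moved down, by 0.52 at the median of all genes. Then 10 of the 13 were higher and Mt-co2, Mt-co3 and Mt-nd4 were lower, at log2 differences of -0.32, -0.31 and -0.05. Without both libraries rich in reads outside exons, 11 of the 13 were higher, at a median of 0.31 against -0.03 over all genes, and Mt-co2 and Mt-co3 were lower, at -0.15 and -0.13. Relative to all genes, the 13 stood in a like place under either scaling, at medians of 0.69 against -0.11 and 0.21 against -0.64. Mt-nd2 was 1.35 higher with library totals (edgeR adjusted p = 0.00120), and the tRNA gene was 1.34 higher (0.00544), while Mt-nd3 and Mt-atp8 were no longer called (0.0677 and 0.2998).

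The makeup of the mitochondrial mRNA, each gene as a percent of the reads of the 13, does not depend on that scaling. Mt-nd2 made up 4.56% and 5.01% of it in control, 4.02% and 5.06% with atorvastatin alone, 11.2% and 12.2% with HCB alone, and 7.08% and 13.2% with both treatments. Mt-co2 made up 7.57% and 7.51%, 7.76% and 7.82%, 5.62% and 5.66%, and 5.25% and 5.66% in the same order. Mt-co3 made up 10.4% and 10.8%, 10.1% and 9.72%, 7.01% and 6.68%, and 9.63% and 6.55%. With HCB, Mt-nd2 thus took a larger share and Mt-co2 and Mt-co3 smaller ones, with the library of both treatments, replicate 1, nearest to those without HCB for Mt-nd2 and Mt-co3 and farthest from them for Mt-co2. Shares of a whole are bound together, so a larger share of Mt-nd2 lowers the others.

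Mt-co1, the largest part at 28.8% to 36.4%, was lower in every library with HCB (28.8% to 30.8%) than in any without (31.3% to 36.4%). Mt-nd1, the mRNA gene before Mt-nd2 on the circle, was higher in all 4 by a narrow margin, at 7.86% to 8.70% against 7.14% to 7.84%. These 5 of 13 genes, 2 higher and 3 lower, did not overlap between libraries with and without HCB. Relative to the reads of the 13 mRNAs, 37.1% of all genes tested did not overlap, 4.47% higher and 32.7% lower. The 5 of 13 was thus close to the share of all genes. The directions are not comparable, since the 13 shares add up to a fixed total and the values of other genes do not. By atorvastatin, 0 of the 13 shares failed to overlap, against 3.35% of all genes, 3.3% higher and 0.0482% lower.

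Mt-nd2 was also set against single genes. Per base, Mt-nd1 held 1.73 and 1.58 times the reads of Mt-nd2 in control and 1.93 and 1.69 times in atorvastatin. It held 0.762 and 0.706 times with HCB alone, and 1.30 and 0.718 times with both treatments. The order of these 2 genes was thus reversed in 3 of the 4 libraries with HCB. Per base, Mt-co3 held 2.55 to 3.32 times the reads of Mt-nd2 in the 4 libraries without HCB and 0.658 to 1.80 times in the 4 with it.

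**Figure D4:**
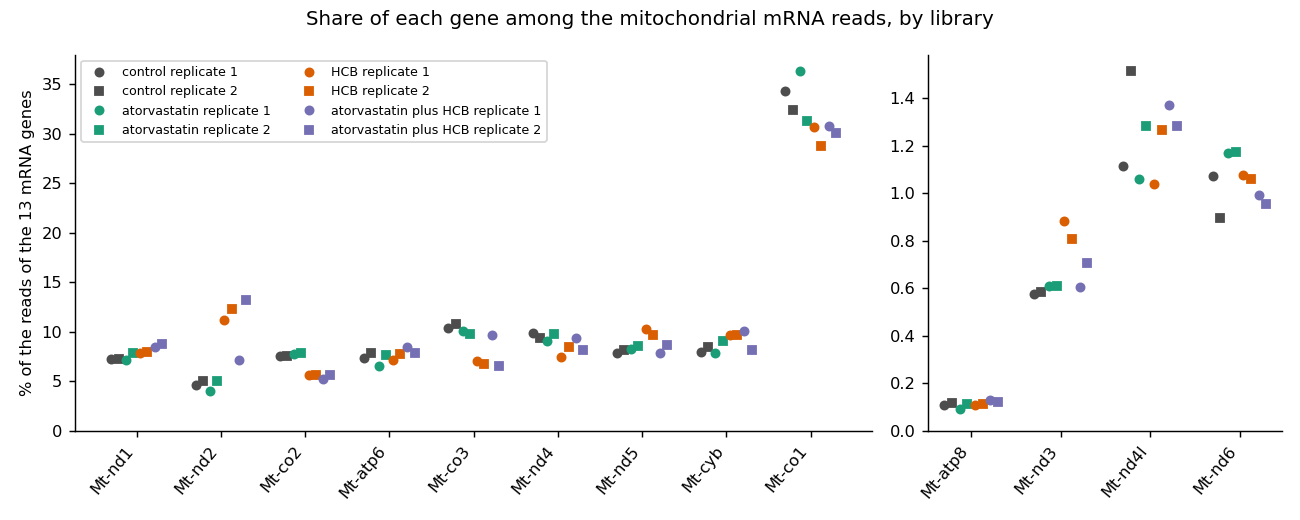
Reads of each mRNA gene as a percent of the reads of the 13 mRNA genes, by library (circles replicate 1, squares replicate 2, colours the 4 groups), with the 4 genes of smallest share on their own axis at the right. Mt-nd2 is at 4.02% to 5.06% without HCB and 7.08% to 13.2% with it, and Mt-co2 is at 7.51% to 7.82% without and 5.25% to 5.66% with it.

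No member was called for atorvastatin. All 13 mRNAs were lower in atorvastatin versus control, at a median log2 difference of -0.61, and all 13 were lower in atorvastatin plus HCB versus HCB, at -0.37, where the medians of all genes were 0.01 and 0.00. For every mRNA, atorvastatin replicate 1 was lowest in CPM in the first comparison and HCB replicate 1 highest in the second. Libraries of atorvastatin and control overlapped for all mRNAs but Mt-co1 and Mt-co3. Those of HCB and of both treatments overlapped for all but Mt-nd2, Mt-co2, Mt-nd3, Mt-nd5 and Mt-nd6. By edgeR, 0 of 16 members and 0% of all genes were called in either, while 0 and 2 members had an unadjusted p under 0.05, and DESeq2 also called 0 members in both. In atorvastatin versus control the 4 members with the smallest p had log2 differences of -1.17 ± 0.60 (the tRNA gene at MT:15348-15415), -0.71 ± 0.38 (Mt-atp8), -0.76 ± 0.45 (Mt-nd4l) and -0.71 ± 0.48 (Mt-co3), each with an SE and an edgeR adjusted p of 1.0.

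Averaged over both levels of HCB, a comparison added after the data were seen, the 13 mRNAs were -0.65 to -0.41 on the log2 scale, and again 0 members were called by edgeR or DESeq2, with 2 at an unadjusted p under 0.05. These were the tRNA gene, at -1.08 ± 0.42, and Mt-nd3, at -0.65 ± 0.28 (SE; edgeR adjusted p = 0.990 for each). In CPM no member's libraries with atorvastatin lay apart from those without, where 0.82% of all genes did, 0.332% higher and 0.488% lower. The lower share of mitochondrial reads with atorvastatin, given above, was thus not matched by a call for any gene.

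The rRNA genes had the largest differences within the libraries with HCB, none of them called. The gene at MT:1094-2664 was at 148 and 31.2 CPM in HCB and 18.3 and 12.2 CPM with both treatments. It was -2.56 ± 0.81 on the log2 scale in atorvastatin plus HCB versus HCB (SE; edgeR adjusted p = 0.892). The gene at MT:68-1025 was at 56.9 and 22.7 CPM in HCB and 16.5 and 5.26 CPM with both, at -1.87 ± 0.78 (adjusted p = 0.892). HCB replicate 1 was well above HCB replicate 2 in both genes. For the interaction, the test of whether the atorvastatin difference depends on HCB, 0 of 16 members and 0% of all genes were called by edgeR, with 1 member at an unadjusted p under 0.05 and 0 called by DESeq2. That member was the rRNA gene at MT:1094-2664, at -2.96 ± 1.11 (SE; adjusted p = 1.0), and Mt-nd2 was at 0.02 ± 0.72.

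Most nuclear genes for the same complexes rose with HCB. In the counts for these and the lists below, rose means called higher and fell means called lower. For the average effect of HCB by edgeR, 60 of 71 nuclear subunits tested rose and none fell, at a median log2 difference of 0.90, where 21.3% of all genes rose. Of these, 27 of 33 rose for complex I, 4 of 4 for complex II, which has no mitochondrially encoded subunit, 7 of 8 for complex III, 10 of 10 for complex IV and 12 of 16 for complex V, the ATP synthase. Ndufa8 of complex I was at 8.91 and 14.9 CPM in control, 9.39 and 15.99 with atorvastatin alone, 48.7 and 32.2 with HCB alone, and 30.6 and 34.3 with both, and rose by 1.56 ± 0.24 (SE; edgeR adjusted p = 0.000440). Among the mitochondrial mRNAs, 2 of 7 were called higher for complex I, none of 3 for complex IV, none of 1 for complex III and 1 of 2 for complex V. All 13 were nonetheless higher by estimate, at a median log2 difference of 0.69. Mt-cyb was at 0.79 ± 0.34 (SE; edgeR adjusted p = 0.0803), against a median of 0.71 for the nuclear subunits of complex III. The counts called thus do not compare the sizes of the differences. The count of nuclear subunits that rose was 24 of 71 with library totals, where 9.03% of all genes rose, and 16 without both libraries rich in reads outside exons. None fell in either case, and without both libraries fewer genes rose over all genes too.

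**Figure D5:**
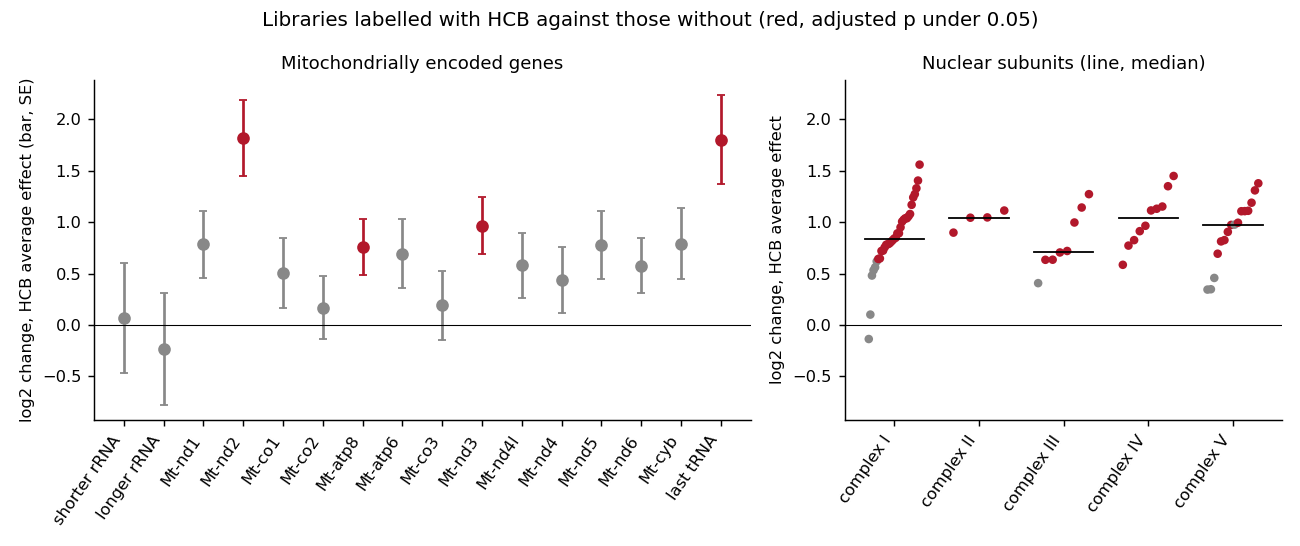
Average log2 difference between libraries labelled with HCB and those without. Left, the 16 members tested with their SE (last tRNA, the gene at MT:15348-15415). Right, nuclear subunits of complexes I to V with the median as a line. Red marks an adjusted p under 0.05, which 4 members and 60 of 71 nuclear subunits have.

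Nuclear genes that act on mitochondrial RNA and DNA moved in both directions, where 21.3% of all genes rose and 25.3% fell. Of 20 genes for processing and decay of mitochondrial RNA, 15 rose and none fell, among them Angel2 (0.98 ± 0.17), Rexo2, an oligoribonuclease (1.21 ± 0.22), and Elac2, which trims the 3' ends of tRNA precursors (0.91 ± 0.18), all log2 with SE. Of 9 genes of mitochondrial transcription, 4 rose and 1 fell, with Tfb2m, a transcription initiation factor, at 1.14 ± 0.19 and Mterf3 at 1.05 ± 0.20. Of 16 genes for mitochondrial DNA upkeep, 5 rose and 2 fell, or 7 called where 46.6% of all genes were, a share close to that background. Rrm2b, a ribonucleotide reductase subunit and p53 target, was at 9.39 and 9.09 CPM in control, 8.72 and 8.33 with atorvastatin alone, 34.0 and 33.1 with HCB alone, and 35.5 and 33.8 with both, and rose by 1.94 ± 0.16. Of the genes named here, Angel2, Elac2 and Mterf3 were not called with library totals (edgeR adjusted p = 0.0831, 0.123 and 0.0579). Polg, the catalytic subunit of the mitochondrial DNA polymerase, fell by 1.18 ± 0.18, from 164 to 229 CPM without HCB to 66.5 to 120.2 CPM with it. With library totals, where 9.03% of all genes were higher and 42.2% lower, these lists had 2 higher and 1 lower for RNA processing, 2 and 2 for transcription, and 1 and 6 for DNA upkeep. Without both libraries rich in reads outside exons, where 12.9% of all genes were higher and 14.8% lower, they had 4 and 0, 4 and 1, and 3 and 1.

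Against the same background, of 74 proteins of the mitochondrial ribosome, 42 rose and none fell, with Mrps11 at 1.45 ± 0.29, Mrpl55 at 1.37 ± 0.24 and Mrps23 at 1.35 ± 0.24. Of 11 mitochondrial translation factors, 4 rose, among them Taco1, a translational activator of Mt-co1, at 1.45 ± 0.18. Of 14 chaperones and proteases, 8 rose and none fell, with Grpel1 at 1.33 ± 0.24. Few genes moved among the tRNA synthetases, with 2 higher and 1 lower of 14, and among the enzymes that modify tRNA and rRNA, with 2 higher and 2 lower of 19. Of 9 regulators of mitochondrial biogenesis, 1 rose and 3 fell, which is close to the 25.3% of all genes that fell. The 3 were Ppargc1a, a transcriptional coactivator of mitochondrial genes, by 2.38 ± 0.25, Nrf1, by 0.96 ± 0.19, and Pprc1, by 0.67 ± 0.19. The fall of Pprc1 was not called without both libraries rich in reads outside exons (edgeR adjusted p = 0.0628). Ppargc1a was at 12.5 to 23.1 CPM in the libraries without HCB and 2.72 to 3.67 CPM in those with it. With library totals, where 42.2% of all genes were lower, 8 proteins of the mitochondrial ribosome were higher and 5 lower, 1 translation factor was higher and 2 lower, 2 chaperones and proteases were higher and 2 lower, and 0 regulators of biogenesis were higher and 5 lower. The synthetases then had 0 higher and 3 lower, and the modifying enzymes 0 higher and 4 lower. Without both libraries rich in reads outside exons, the ribosome had 11 higher and 0 lower, and Ppargc1a stayed called. For atorvastatin, edgeR called 0 of the 257 listed nuclear genes tested, on average or at either level of HCB, with 3, 0 and 5 at an unadjusted p under 0.05.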

How the data were processed

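RNA of 8 rat livers was sequenced with 150 bp paired reads. The authors deposited whole-number read counts per Ensembl gene. The tools named in the submitters' processing notes are fastp 0.23.4 for trimming, STAR 2.7.10b for alignment, and R 4.3.2 with DESeq2 1.42.1. Per the file headers, exons were counted with featureCounts 2.0.6 on Ensembl release 111 of mRatBN7.2, with no option for strand, pairs or multimapping reads. Mates thus appear to be counted singly, and 55 of 69 nonzero rRNA and tRNA counts were even. Multimapping reads, 10.4% to 21.0% per library, were left out, which would remove mitochondrial reads with equal matches in nuclear copies. Library preparation is not given in the sources used here. Members, lists and tests were chosen with earlier results of these data known.

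Counts were tested with edgeR 4.0.16 (TMM, filterByExpr, robust quasi-likelihood, 1 model of 4 groups) in R 4.3.3, Benjamini-Hochberg adjusted over 16591 genes at 0.05. The average effect of HCB is the mean of both HCB comparisons. The rule named, in each comparison, members past the threshold or the 4 with the smallest p, and up to 3 nuclear genes per list. Not all members and nuclear genes that it names are reported. Mt-nd1 in CPM, the ratios of neighbours and the members named beyond this were chosen after their values were seen. Of 274 symbols in 15 nuclear lists, 262 were found. TPM used the exon lengths of the deposited table. Shares were tested by exact permutation of 8 libraries. In simulated counts for HCB versus control (16048 genes), the test found 69 of 100 genes with a 4-fold change and 7 of 100 with a 2-fold change, and made 10 false calls. For the average effect of HCB (16000 genes) these were 79, 48 and 8. Only those genes were changed in the simulation, a far smaller share than was called in the data. The adjusted threshold depends on that share, so the rates found may not hold for the data. Alternatives were DESeq2 1.42.0, other scalings and filters, no robust estimation, halved counts, 2 groups alone, a replicate block and leaving out libraries. Intervals cover counting error only. Python 3.11.15 with matplotlib 3.10.9 made the figures.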

Additional observations from a re-analysis of the deposited data

Results flagged for a closer look

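Among 64 groups of 4 libraries examined, 6 held a library far from the other 3, and chance sets about 1 in 20 such groups apart. The rRNA share of mitochondrial reads was 0.289% in atorvastatin replicate 1, against 0.0186% to 0.0334% in the other libraries with atorvastatin. Of the reads of the 13 mRNAs, Mt-co3 made up 9.63% in atorvastatin plus HCB replicate 1, against 6.55% to 7.01% in the other libraries with HCB, and Mt-co2 made up 5.25% there, against 5.62% to 5.66%. In atorvastatin plus HCB replicate 2, Mt-co3 was at 6.55%, against 9.63% to 10.1% in the other libraries with atorvastatin, and Mt-nd3 was at 0.708%, against 0.607% to 0.611%. Mt-nd6 was at 0.896% in control replicate 2, against 1.06% to 1.08% in the other libraries without atorvastatin.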

How the results depend on the processing

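In a simulation where far fewer genes changed than were called in the data, 7 of 100 2-fold changes were found for HCB versus control. For the average effect of HCB, 48 of 100 were found. Several calls turned on single libraries. Members called were 1 in HCB versus control, 2 in atorvastatin plus HCB versus atorvastatin and 4 for the average effect of HCB. In the same order they were 3, 4 and 9 with DESeq2, 5, 5 and 7 with no filter on low counts, and 0, 0 and 2 without control replicate 1 and atorvastatin replicate 1 together, the libraries with most reads outside exons (chosen after the data were seen). HCB versus control gave 2 without robust estimation, with halved counts or with its 2 groups alone. Atorvastatin plus HCB versus atorvastatin gave 1 with DESeq2 size factors or its 2 groups alone. The average effect of HCB gave 2 with library totals (chosen after the data were seen), where 51.2% of all genes were called, against 46.6% as reported. Leaving out 1 library gave 0 to 2, 0 to 7 and 2 to 10. With no filter, atorvastatin versus control gave 1 member, atorvastatin plus HCB versus HCB 2, the interaction 2 and the average effect of atorvastatin 3, all lower, against 0 with the filter, and the cause was not tested. For DESeq2, no filter and leaving out 1 library, the share of all genes called is not given here. Those counts thus do not tell a change in the members from a change in calls over all genes. Nuclear respiratory subunits called for HCB went from 60 to 24 with library totals and 16 without both libraries named, and the balance of higher and lower calls in other nuclear lists moved with library totals. The lower mitochondrial share with atorvastatin, -3.00 points, was -2.28 over reads mapped to 1 place and -3.10 over TMM-scaled sizes (exact permutation p = 0.143 and 0.229, against 0.0286, which did not pass adjustment). It was -3.42 to -2.27 without 1 library. No member named by the rule changed sign. For the average effect of HCB, others did, among them Mt-co2, Mt-co3, Mt-nd4 and the rRNA gene at MT:68-1025 with library totals. Without both libraries, Mt-co2, Mt-co3 and the rRNA gene at MT:1094-2664 did. The rRNA gene at MT:68-1025 also moved from a log2 difference of 0.07 to -0.42 without atorvastatin plus HCB replicate 1 alone.

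Correlations of same-numbered deviations were -0.05 to 0.27, highest between control and atorvastatin. Replicate 1 of those groups also had the most reads outside exons, at 27.7% and 34.0%. Whether replicate numbers mark a pairing of animals is thus not settled. With a replicate block atorvastatin plus HCB versus atorvastatin gave 3 members, the other counts did not move, and Mt-nd2 was 1.89 higher (edgeR adjusted p = 0.00167).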
